A study of Mus musculus with 60 samples.

Results

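Cytosolic ribosomal protein genes encode the proteins of the ribosome that translates nuclear messages. They were taken by name, as all genes whose mouse symbol is Rpl or Rps followed by a number, with or without a closing letter or digit, and with pseudogenes and predicted genes left out by name. This gave 84 genes of the 55414 in the count table, 50 of the large subunit and 34 of the small subunit. In the annotation used for names 78 of them were protein-coding, and the other members, Rpl32l, Rpl6l, Rps12l1, Rps3a2, Rps3a3 and Rps4l, were listed as processed pseudogenes. No value measured here chose them.

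Polyadenylated RNA had been sequenced from OT-I CD8 T cells, which carry a transgenic receptor for an ovalbumin peptide, isolated as naive cells by negative selection from the spleens of NOD mice, a strain prone to autoimmune diabetes. The mice were Sh2b3+/+ (wild type) or Sh2b3-/- (knockout), Sh2b3 being an adaptor that restrains cytokine receptor signalling. Cells were left unstimulated (0 h) or cultured for 2, 6 or 24 h on plate-bound anti-CD3 at 10 µg/mL with soluble anti-CD28 at 5 µg/mL, and further 24 h cultures also held a blocking antibody to IL-2 at 10 µg/mL. All groups share the NOD strain and the OT-I receptor, and all but the 0 h groups share the stimulation. No group was cultured for 2, 6 or 24 h without it, so stimulation and time in culture cannot be told apart. Each genotype had 11 libraries at 0 h, 5 at each of 2, 6 and 24 h, and 4 with anti-IL-2, 60 in all. The labels do not say whether replicates were separate mice or cultures, so the p-values measure the spread between these samples, which may be technical.

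A ribosome takes up its proteins in near equal numbers, and their messages are among the most abundant in most cells. Many of these messages begin with a C followed by a run of pyrimidines, the 5′ terminal oligopyrimidine (TOP) motif, through which mTOR signalling and the protein LARP1 govern how well they are translated. T cells that leave quiescence enlarge their nucleoli and make more ribosomes before they divide, a step that needs ribosomal RNA synthesis and assembly factors besides the proteins themselves. A few members have paralogs that can take their place in the ribosome, among them Rps27l for Rps27 and Rpl22l1 for Rpl22. Rpl7 also has a paralog, Rpl7l1.

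The start sites of the members that set the pattern described below are shown from RefSeq (GRCm38.p6), with 30 bases before the annotated start and 20 from it on. Capitals mark the run of C and T that opens at a start with a C. Rps27, Rpl38 and Rps6 are shown as members with such a run, and Rps27l, Rpl7l1, Rpl22l1 and Rps2 as members that behaved differently over time. They were picked with these changes known. Rps10, not shown, has a run of 10 bases and was called higher at 2 h in both genotypes. Whether a run goes with a fall was not tested. Rps27 lies at chr3:90213629-90213678 on the minus strand, Rpl38 at chr11:114668550-114668599 on the plus strand, and Rps6 at chr4:86857348-86857397 on the minus strand. Rps27l lies at chr9:66946056-66946105 on the plus strand and Rpl7l1 at chr17:46782637-46782686 on the minus strand. Rpl22l1 lies at chr3:28805478-28805527 and Rps2 at chr17:24720033-24720082, both on the plus strand.
Rps27: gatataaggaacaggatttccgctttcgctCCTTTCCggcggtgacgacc
Rpl38: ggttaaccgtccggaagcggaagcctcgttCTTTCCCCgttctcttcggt
Rps6: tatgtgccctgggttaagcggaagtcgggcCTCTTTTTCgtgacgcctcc
Rps27l: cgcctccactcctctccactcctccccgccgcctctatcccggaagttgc
Rpl7l1: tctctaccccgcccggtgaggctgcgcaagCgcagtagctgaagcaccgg
Rpl22l1: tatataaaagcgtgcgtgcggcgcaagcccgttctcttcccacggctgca
Rps2: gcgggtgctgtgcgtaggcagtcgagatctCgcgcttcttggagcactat

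Promoter windows of 300 bases were found for 60 of the 84 members. A start with a C followed by at least 4 pyrimidines stood in 13 of these, 21.7%, against 3.0% of all 27025 genes with a window. Annotated starts can lie some bases from the true ones, so a missing run says only that these letters are not at the annotated start. On either strand the window held CTTTCC in 51.7% of members and 29.3% of all genes. For CCGGAAGT, the letters bound by ETS factors such as GABP, the shares were 18.3% and 4.3%. AAGATGGC, the letters of YY1 sites, stood in 10.0% of members and 3.2% of all genes. CACGTG, the E-box of MYC, stood in 10.0% and 8.1%, and TATAAA in 11.7% and 15.7%. CTTTCC can lie within a pyrimidine start, as it does in Rps27 and Rpl38, so these counts overlap. They are descriptions of letters, not of binding.

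Libraries held 13987029 to 35476519 counts (median 17994613). Sh2b3 itself stood at 68.0 to 96.2 CPM (counts scaled to a library total of 1000000) in unstimulated wild-type cells and at 7.57 to 16.97 CPM in knockout cells, and the genotypes did not overlap at any time, with means of 152 against 22.5 CPM at 2 h and 69.8 against 10.9 CPM at 24 h. The summed CD8 T cell markers reached 6306 to 7470 CPM at 0 h and 2244 to 3911 CPM in all stimulated libraries, with all 8 genes present. The 6 CD4 and regulatory T cell markers, among them Il2ra and Ctla4, which activated CD8 T cells also express, summed to 14.6 to 35.9 CPM at 0 h and 77.95 to 588 CPM after stimulation, while Cd4 itself stayed at or below 1.77 CPM. The 7 NK cell markers summed to 288 to 455 CPM at 0 h and 34.3 to 349 CPM after stimulation. The 8 B cell markers summed to 659.8 to 984 CPM at 0 h and to 175 to 748 CPM after stimulation, while neutrophil markers stayed at or below 7.56 CPM in sum. Their part in the changes over time was not tested. In bulk RNA, fewer cells of a type and less RNA per cell cannot be told apart. The library names fall into 4 runs of numbers, called sets A to D here. Set A holds all 2 h and 6 h libraries, sets B and C the untreated 24 h libraries, and set D all anti-IL-2 libraries. The 0 h libraries are in sets A, B and C. Between levels at 2 or 6 h and those at 24 h, time and set thus cannot be told apart.

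Nearly all members were well covered. Rpl10l and Rps12l1 had no reads in any library, which allows each up to 3 counts, or 0.214 CPM in the smallest library, and Rpl3l had reads in 9 libraries. In the time-course fit 81 members passed the filter on low counts. Rps10, Rpl24 and Rpl13a had few counts for ribosomal proteins, and the treatment of reads shared with processed pseudogenes or overlapping genes is not given in the sources used here, so these and the members with close copies are uncertain.

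The members held less of the RNA after stimulation. In unstimulated wild-type cells 9.32% ± 0.744 (SD, n = 11) of all counts lay in member genes, with a range of 7.95 to 10.4%. The share was 7.78% ± 0.586 at 2 h, 6.74% ± 0.244 at 6 h and 7.87% ± 0.963 at 24 h (n = 5 each). All 5 wild-type libraries at 6 h, at 6.55 to 7.16%, lay below all 11 at 0 h. Over all sets the 2 h and 24 h ranges reached into those of unstimulated cells. Within set A, which holds all 2 h libraries, wild-type cells had 8.89 to 9.77% at 0 h and 7.19 to 8.74% at 2 h, without overlap. Within set B the 24 h libraries (6.85 and 7.81%) lay below those at 0 h (7.95 and 8.45%). Within set C the highest at 24 h (9.46%) lay above the lowest at 0 h (9.01%). In knockout cells the share was 9.60% ± 0.870 at 0 h, 8.04% ± 0.272 at 2 h, 7.46% ± 0.430 at 6 h and 7.73% ± 0.391 at 24 h. Both genotypes thus had their lowest mean at 6 h among cultures without anti-IL-2, although 6 h and 24 h libraries share no set. A share of counts says nothing of the total RNA per cell, which was not measured. The ratio of large-subunit to small-subunit counts was 1.23 ± 0.0380 at 0 h and 1.28 ± 0.0585 at 24 h in wild-type cells. In knockout cells it was 1.24 ± 0.0353 and 1.29 ± 0.0417. Within set C it was level in wild-type cells, at 1.232 and 1.234, and 1.247 and 1.266 in knockout cells, while set B, with 2 libraries a group, went from 1.16 to 1.34 and from 1.20 to 1.33.

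**Figure D1:**
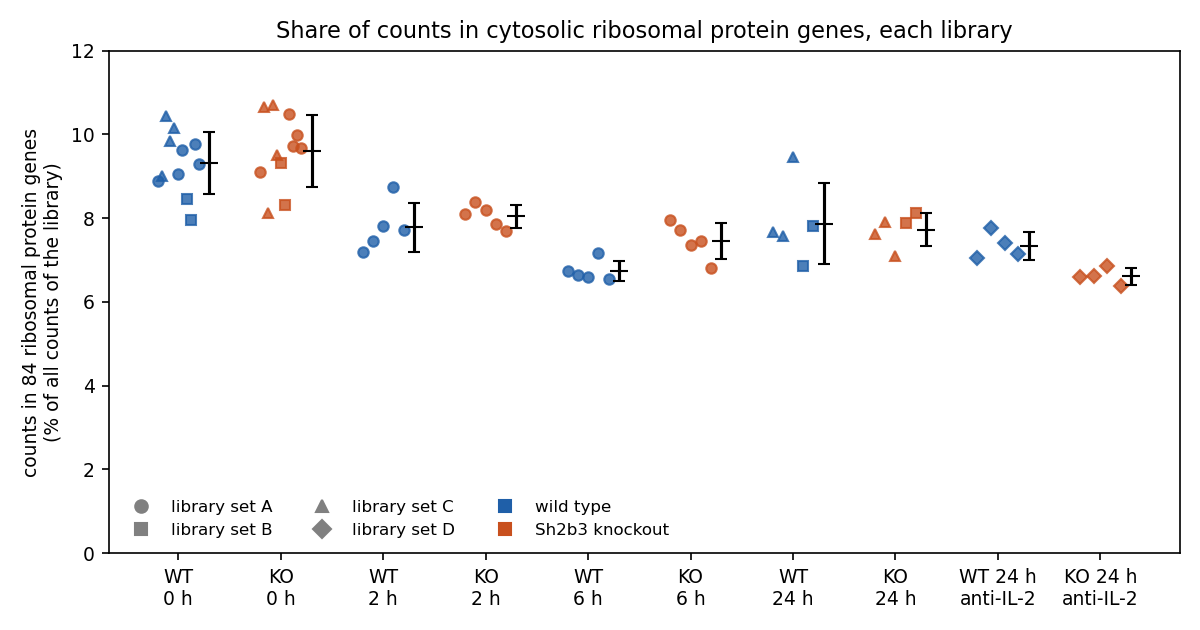
Share of all counts in the 84 member genes (percent, vertical axis) by group. Points are the 60 libraries, coloured by genotype and shaped by library set, and bars give the mean and SD. Unstimulated groups average 9.32% and 9.60%, wild-type cells at 6 h 6.74%, and knockout cells with anti-IL-2 6.61%.

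Gene by gene, the messages fell early and by modest amounts. Between 0 and 2 h in wild-type cells 58 of 81 members fell and 3 rose at an adjusted p under 0.05 in edgeR's quasi-likelihood test, where 49.5% of all 15762 genes tested were called, 25.4% as lower and 24.1% as higher. The median member difference was -0.32 on the log2 scale against -0.08 for all genes. In knockout cells 53 fell and 3 rose (50.4% of all genes called, 25.7% lower and 24.7% higher), with a median of -0.26 against -0.09. The 41 members that fell in both genotypes were 70.7% of the wild-type and 77.4% of the knockout list. Without knockout replicate 5 at 2 h the knockout count was 30.

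From 2 to 6 h the fall went on. In wild-type cells 49 members fell further and 2 rose (31.7% of all genes called, 15.7% lower and 16.0% higher), with a median of -0.32 against 0.04. In knockout cells 30 fell and 2 rose (31.8% of all genes called, 14.6% lower and 17.2% higher), with a median of -0.22 against 0.06. In knockout libraries of set A fitted alone 46 fell and 2 rose, where 2265 of all 13625 genes were lower and 2564 higher. With libraries whose numbers lie 10 apart also blocked as pairs 55 fell and 2 rose, where 2699 of 13625 genes were lower and 3049 higher. The 29 members that fell in both genotypes were 59.2% of the wild-type list and 96.7% of the knockout list. Rpl7l1 and Rps27l were the members that rose in both genotypes.

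At 24 h the level of most members was still below that of unstimulated cells. In wild-type cells 53 members stood lower and 4 higher (57.3% of all genes called, 30.4% lower and 26.9% higher), with a median of -0.32 against -0.09. Of the large subunit 28 of 48 members fell and of the small subunit 25 of 33. In knockout cells 49 fell and 7 rose (60.8% of all genes called, 32.0% lower and 28.7% higher), with a median of -0.32 against -0.11. The 47 members that fell in both were 88.7% of the wild-type and 95.9% of the knockout list. Rpl13a, Rpl7l1, Rps2 and Rps27l rose in both genotypes, and Rpl14, Rpl41 and Rpl7a were called higher in the knockout alone, a difference between genotypes that was not called for any of them.

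**Figure D2:**
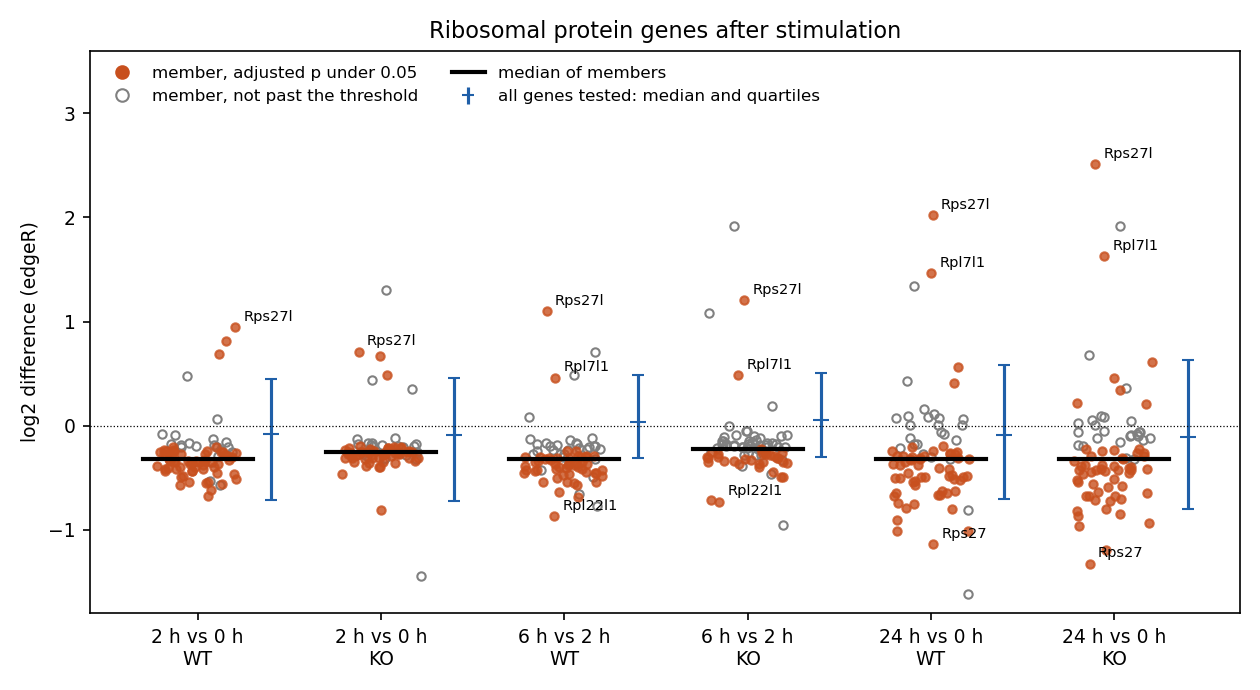
Log2 difference of each tested member (points) between the times compared, in wild-type (WT) and knockout (KO) cells. Filled points are called, black lines are member medians (-0.22 to -0.32), and blue bars the median and quartiles of all genes; the open points beyond 1 unit are Rpl39l and Rps4l, with means under 1 CPM.

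Rps27, a zinc-finger protein of the small subunit, fell the most of the well-covered members. In wild-type cells its level was 1466, 1752 and 1995 CPM (lowest, median, highest) at 0 h. At 2 h it was 1668, 1613, 1595, 1943 and 1322 CPM. At 6 h it was 868, 823, 1202, 1145 and 1067 CPM. At 2 h 4 of 5 libraries still lay within the unstimulated range, while all 6 h libraries lay below it. At 24 h the libraries held 788, 857, 1303, 407 and 581 CPM, all below every unstimulated one. The fitted level at 24 h was 0.454 times that at 0 h (log2 difference -1.14 ± 0.137 SE, adjusted p = 4.4e-10). In knockout cells the 24 h libraries held 665, 808, 618, 588 and 573 CPM against 1038 to 2049 CPM at 0 h, again with no overlap. The knockout difference was -1.33 ± 0.139 (adjusted p = 5.9e-12).

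Its paralog Rps27l, a p53 target that can replace Rps27 in the ribosome, went the other way. At 0 h wild-type libraries held 14.9, 19.5 and 23.1 CPM (lowest, median, highest). At 2 h they held 42.8, 35.6, 43.4, 42.4 and 35.8 CPM. At 6 h they held 76.6, 67.8, 102, 89.3 and 81.5 CPM. Neither of these later groups overlapped the group before it. At 24 h the values were 62.3, 59.3, 90.1, 74.6 and 102 CPM, within about the 6 h range. The fitted level at 24 h was 4.06 times that at 0 h (log2 difference 2.02 ± 0.154, adjusted p = 3.4e-16). Knockout cells held 28.1, 40.1, 30.3, 26.8 and 21.7 CPM at 2 h. After 24 h they held 93.0, 87.9, 72.5, 110.2 and 97.5 CPM, against 10.5 to 21.98 CPM before stimulation, so these groups were far apart. Their 24 h level was 5.71 times that at 0 h (2.51 ± 0.157, adjusted p = 2.2e-19).

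Taken as a share of the counts of both genes, Rps27l made up 1.11% at 0 h, 2.416% at 2 h, 7.58% at 6 h and 10.1% at 24 h in wild-type cells. In knockout cells the shares were 1.03%, 1.94%, 5.42% and 12.6%. These shares compare times, not the numbers of molecules of each gene, since they are not scaled by length. Rps27 remained the larger source of counts throughout.

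Rpl7l1, a nucleolar paralog of Rpl7 with a role in making the large subunit, rose in each step tested. Wild-type libraries held 56.9, 66.7 and 77.2 CPM (lowest, median, highest) at 0 h. After 2 h of stimulation the values were 103, 105, 113, 110 and 93.1 CPM. After 6 h they were 137, 136, 143, 151 and 135 CPM, and after 24 h 175, 162, 190.3, 188 and 202 CPM. No time overlapped the one before it. The difference between 24 and 0 h was 1.46 ± 0.099 (adjusted p = 2e-18) in wild-type and 1.63 ± 0.1 (adjusted p = 3.4e-20) in knockout cells. Rpl7 itself, at 1680 to 2255 CPM at 0 h and 1811 to 2268 CPM at 24 h in wild-type cells, had differences of 0.11 (adjusted p = 0.194) in wild-type and -0.05 (adjusted p = 0.564) in knockout cells. Rpl7l1 thus made up 3.27% of the counts of the pair at 0 h, 8.64% at 6 h and 8.63% at 24 h in wild-type cells, and 2.93%, 7.52% and 9.54% in knockout cells.

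Rpl22l1 is the paralog of Rpl22, a protein needed for the development of most T cells. Its wild-type libraries held 87.1, 108.9 and 155 CPM (lowest, median, highest) at 0 h. Values of 65.5, 71.7, 75.1, 82.2 and 86.0 CPM followed after 2 h, and values of 44.3, 44.5, 35.0, 46.2 and 32.2 CPM after 6 h, the latter below every earlier library. At 24 h the libraries held 87.5, 50.9, 91.8, 87.9 and 98.2 CPM, back in the lower part of the unstimulated range but for 1 library. From 2 to 6 h it fell by 0.87 ± 0.161 (adjusted p = 2.5e-05) in wild-type cells and by 0.73 ± 0.159 (adjusted p = 0.00027) in knockout cells. Between 0 and 24 h it fell by 0.49 in wild-type cells (adjusted p = 0.0039), and the knockout difference was -0.06 (adjusted p = 0.759). Rpl22 fell by 0.33 in wild-type (adjusted p = 0.001) and by 0.40 in knockout cells (adjusted p = 8e-05) over the same span. Rpl22l1 made up 19.5% of the pair's counts at 0 h in wild-type cells, 11.4% at 6 h and 19.0% at 24 h, and 18.6%, 12.1% and 23.8% in knockout cells.

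Paralogs known from testis (Rpl39l, Rpl10l) or muscle (Rpl3l), and the pseudogene Rps4l, were at or near 0. Rpl39l reached at most 0.763% of the counts of Rpl39 and itself in any library, and Rps4l at most 0.0943% of those with Rps4x. Rpl3l stayed at or below 0.0279% of those with Rpl3, and Rpl10l had no reads beside Rpl10.

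**Figure D3:**
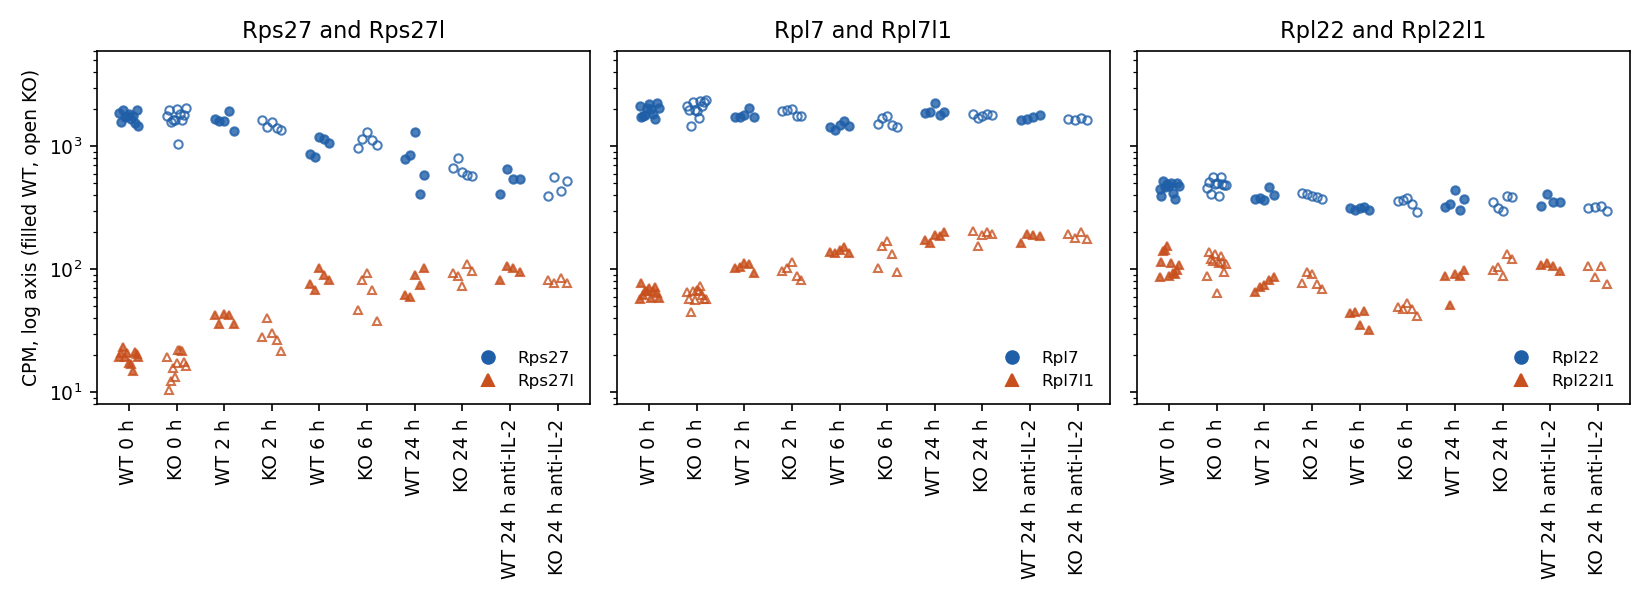
Levels of Rps27, Rpl7 and Rpl22 (circles) and of their paralogs (triangles) in CPM on a log axis, by group, each point 1 library, filled for wild type and open for knockout. Rps27 declines while Rps27l climbs from 14.9 to 23.1 CPM at 0 h to 59.3 to 102 CPM at 24 h in wild-type cells, and Rpl22l1 is lowest at 6 h.

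Small and often variable members were among those that fell most. Rpl39, which lines the exit tunnel of the large subunit, held 540.0, 704.5 and 832 CPM (lowest, median, highest) in wild-type cells at 0 h and 361, 377, 492, 209 and 374 CPM at 24 h. The ranges did not overlap, and the difference was -1.01 ± 0.121 (adjusted p = 2.9e-10), against -1.20 ± 0.123 (adjusted p = 2.5e-12) in knockout cells. Rps28, of the small subunit, fell by 1.02 ± 0.162 (adjusted p = 5.1e-07), with 398 to 808 CPM at 0 h and 144 to 387 CPM at 24 h. Rps29, another small-subunit zinc-finger protein, fell by 0.90 in wild-type cells (adjusted p = 6.7e-06) and by 0.87 in knockout cells. Rpl41, the shortest of the ribosomal proteins, was called higher at 24 h in knockout cells, by 0.34 ± 0.126 (adjusted p = 0.017). Its wild-type libraries ran from 732 to 1319 CPM at 24 h, over much the same range as the 678 to 1249 CPM at 0 h.

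Rps6, Rpl5 and Rpl11 are members with known roles outside the ribosome. Rps6, the substrate of S6 kinase in mTOR signalling, held 1442, 1742 and 2192 CPM (lowest, median, highest) at 0 h in wild-type cells and 989, 1103, 1406, 939 and 1093 CPM at 24 h. No 24 h library reached the unstimulated range, and the fall was 0.50 in wild-type (adjusted p = 1.5e-05) and 0.71 in knockout cells (adjusted p = 6.9e-09). Rpl5 and Rpl11 join the 5S ribosomal RNA and can bind MDM2. Rpl5 stood at 1807 to 2501 CPM at 0 h and at 1126 to 1593 CPM at 24 h in wild-type cells and fell by 0.55 (adjusted p = 1.6e-08). Rpl11 held 654 to 1272 CPM at 0 h and 681 to 898 CPM at 24 h, with a difference of -0.27 that was not called (adjusted p = 0.067).

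Rps14 and Rps19, whose loss causes anaemia in people, fell by 0.53 and 0.48 in wild-type cells between 0 and 24 h. Rpl12, a member of the stalk base, held 2203, 2726 and 3124 CPM (lowest, median, highest) at 0 h and 1572, 1554, 1992, 1382 and 1437 CPM at 24 h, without overlap. It fell by 0.66 (adjusted p = 1.3e-10), and by 0.80 in knockout cells (adjusted p = 4.1e-13). Rpl3, of the peptidyl transferase centre, fell by 0.27 in wild-type and by 0.39 in knockout cells.

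Besides the paralogs, Rps2 and Rpl13a stood higher at 24 h in both genotypes. Rps2, a small-subunit protein near the mRNA entry site, held 1465, 1907 and 2193 CPM (lowest, median, highest) at 0 h in wild-type cells and 2186, 2390, 2991, 2427 and 2511 CPM at 24 h. Only 1 of the 24 h libraries lay within the unstimulated range. It rose by 0.41 ± 0.088 (adjusted p = 7.4e-05), and by 0.46 in knockout cells (adjusted p = 9e-06). Rpl13a rose by 0.57 (adjusted p = 4.8e-05) and 0.62 (adjusted p = 1e-05), at levels of 34.0 to 81.6 CPM over the 0 h and 24 h groups. Rps10 was called higher at 2 h, by 0.82 ± 0.179 in wild-type cells (adjusted p = 0.00012) and 0.49 in knockout cells (adjusted p = 0.023). Its levels were only 5.32 to 16.4 CPM at these times, and without knockout replicate 3 at 2 h the knockout call was lost (adjusted p = 0.123).

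Ribosome biogenesis factors, initiation factors and mitochondrial ribosomal protein genes mostly rose by 24 h, while a list of ribosome quality factors and regulators, such as Larp1 and Mtor, was mixed. Between 0 and 24 h in wild-type cells 30 of 32 ribosome biogenesis factors rose and none fell, with a median of 0.85. Examples were Ncl (1.66), Wdr12 (1.61) and Npm1 (1.49), nucleolar proteins of rRNA processing and assembly. Of 22 initiation factors 20 rose and 0 fell (median 0.89), among them Eif5a, which also serves elongation, by 1.69. Of 78 mitochondrial ribosomal protein genes 67 rose and 1 fell (median 0.84), with Mrpl12 up by 1.90. Of 14 quality factors and regulators 5 rose and 6 fell (median 0.02), and in knockout cells 6 rose and 4 fell (median 0.06). Of all genes 26.9% were called higher and 30.4% lower in wild-type cells, and 28.7% and 32.0% in knockout cells. Whether the quality factors and regulators differ from these shares was not tested. The lists were chosen with results of these data known. Beside these, 53 of 81 cytosolic members fell.

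Of 7 ribosomal proteins whose symbols fall outside the naming pattern 5 fell and 0 rose. Rplp2 and Rplp1, of the acidic stalk, fell by 0.68 and 0.52, and Fau by 0.59. Of 18 elongation factors and other genes with 5′ TOP messages 7 rose and 6 fell (median 0.04), where 26.9% of all genes were higher and 30.4% lower. Among them Nap1l1 was up by 1.63 and Tpt1 down, at -0.77. In the step from 2 to 6 h 25 of 32 biogenesis factors rose and 0 fell, while 49 members fell (16.0% of all genes higher and 15.7% lower). Between 0 and 2 h 28 of 78 mitochondrial ribosomal protein genes fell and 5 rose (25.4% of all genes lower and 24.1% higher), with the rest not called.

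Without stimulation the genotypes differed little in these genes. No member was called between knockout and wild-type cells at 0 h, where 0.633% of 12802 genes were called. An unadjusted p under 0.05 was found for 1 of 78 members and for 1337 of the 12802 genes. The median member difference was 0.05 against -0.00 for all genes, and 55 members lay above 0. DESeq2 called 0 as well. Rps27l had the lowest difference, -0.21 ± 0.105 (adjusted p = 0.492), and it varied by library set. In set C it held 10.5 to 15.6 CPM in 4 knockout libraries and 19.5 to 23.1 CPM in 4 wild-type libraries, a difference of -0.70 ± 0.136 that was called within that set (adjusted p = 0.0161). Within sets A and B the differences were 0.06 and 0.12.

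At 2 and 6 h the member medians lay above 0 in knockout cells, with no member called. At 2 h the median was 0.09 against 0.01 for all genes (0.0647% of all genes called), and 58 of 78 members were above 0. Of the 78 members 15 had an unadjusted p under 0.05, and of 12372 genes 1623 did. The smallest adjusted p was that of Rps27l (-0.45 ± 0.134, adjusted p = 0.222), whose knockout libraries held 21.7 to 40.1 CPM and its wild-type libraries 35.6 to 43.4 CPM. With no filter on low counts Rpl11, Rpl23 and Rps27l were called at 2 h, while DESeq2 called 0. At 6 h the median was 0.16 against -0.00 (0.0306% called), and 75 of 79 members were above 0. There 26 members and 743 of 13082 genes had an unadjusted p under 0.05, and the smallest adjusted p among members was 0.683. DESeq2 called 0 there too.

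Rpl23a, which binds nascent-chain factors at the tunnel exit, showed the largest difference at 6 h, 0.45 ± 0.152 (adjusted p = 0.782). Its libraries held 654, 559.5, 453, 577 and 429 CPM in knockout and 422, 424, 266, 469.6 and 358 CPM in wild-type cells, so the groups overlapped. The genotype by time terms at 2, 6 and 24 h called 0 members in edgeR and 0 in DESeq2. In edgeR 0, 0 and 0.140% of all genes were called. Unadjusted, 0, 8 and 3 of 81 members had a p under 0.05, and 1001, 797 and 1894 of 15762 genes did. The member medians of these terms were 0.06, 0.16 and 0.01.

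At 24 h the median member difference was -0.01 against 0.00 for all genes (0.372% called). Of 79 members 0 were called in edgeR and 0 in DESeq2. An unadjusted p under 0.05 was found for 1 member and for 1512 of 12906 genes. Rpl22l1 stood at the top, at 0.38 ± 0.135 (adjusted p = 0.281), with 87.7 to 134 CPM in knockout and 50.9 to 98.2 CPM in wild-type libraries. The library sets went different ways: within set B the median member difference was 0.16, and within set C it was -0.10.

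With IL-2 blocked, the members stood lower in knockout than in wild-type cells. The share of counts in members was 7.34% ± 0.329 (n = 4) in wild-type and 6.61% ± 0.198 (n = 4) in knockout cells, and the ranges, 7.04 to 7.77% and 6.38 to 6.86%, did not overlap. The median member difference was -0.17 against -0.00 for all genes, and 74 of 78 members lay below 0. The test called 4 members lower and 0 higher (0.350% of all genes called, 0.149% lower). Before adjustment 50 members, all of them lower, had a p under 0.05, as did 1274 of 13441 genes, 650 of them lower. Both groups belong to set D, so this comparison lies within 1 library set.

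Rpl34, a large-subunit protein, held 751, 766, 768 and 723 CPM in wild-type and 635, 573, 619.9 and 559 CPM in knockout cells, a difference of -0.34 ± 0.057 (adjusted p = 0.013). Rpl30, which also binds its own transcript in yeast, held 551, 607, 548 and 516 CPM against 468, 450.2, 458 and 399 CPM, a difference of -0.33 ± 0.066 (adjusted p = 0.042). Neither gene's groups overlapped. Rps25, which helps some viral messages bind the ribosome, held 954, 931, 964 and 1013 CPM against 812, 818, 816 and 778 CPM (-0.26 ± 0.050, adjusted p = 0.026). Rps26, at the mRNA exit channel, held 1183, 1237, 1243 and 1240 CPM against 1002, 1034, 1070 and 1051 CPM (-0.24 ± 0.049, adjusted p = 0.042). These groups did not overlap either. The number of calls rests on single libraries: it was 0 without wild-type replicate 2 or 3 or knockout replicate 4, and 1 or 2 without wild-type replicate 1 or 4 or knockout replicate 1 or 3. DESeq2 called 16 members lower and 0 higher, and of all 13441 genes 67 lower and 74 higher. Over 12 alternative fits the difference of Rpl34 ran from -0.37 to -0.30 and that of Rpl30 from -0.36 to -0.28.

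The largest differences belonged to short members. Rpl38 had -0.44 ± 0.170 (adjusted p = 0.448), Rpl36a -0.36 ± 0.107 (adjusted p = 0.257) and Rps29 -0.36 ± 0.194 (adjusted p = 0.628), none of them called. Rpl38 held 231, 394, 291 and 255 CPM in wild-type and 205, 248, 238 and 173 CPM in knockout cells, so its groups overlapped. At the other end were Rpl3, Rpl6 and Rpl7l1, with differences of -0.01, 0.02 and 0.03.

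Across 74 members with a coding length, the knockout difference with anti-IL-2 followed that length, with a Spearman rho of 0.73, against 0.22 over 9435 other genes. Members of up to 350 coding bases (15) had a median of -0.32, those of 350 to 600 bases (38) one of -0.18, and longer ones (21) one of -0.09. Other genes of up to 350 bases also stood below 0, at a median of -0.14, and those over 600 bases at 0.00. The correlation is across genes of the same 8 libraries, and what made it was not tested. Between 0 and 24 h in wild-type cells the class medians of members were -0.65, -0.34 and -0.25 (rho 0.39), while those of other genes were 0.23, 0.23 and -0.07 (rho -0.19).

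**Figure D4:**
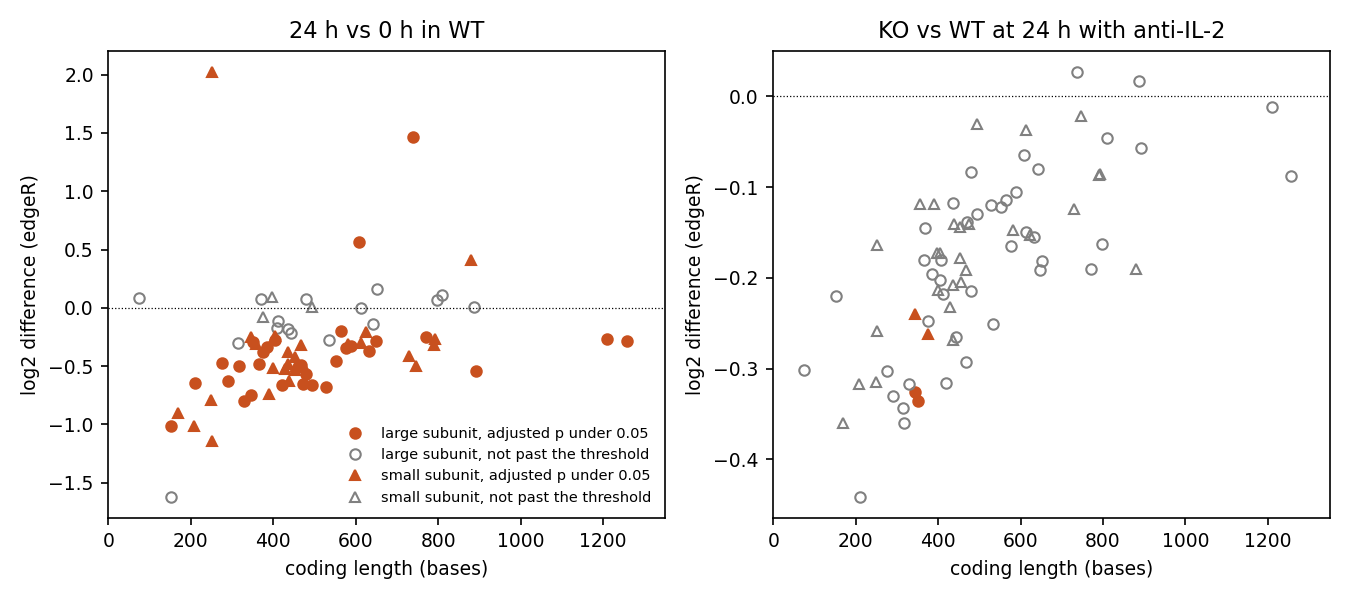
Log2 difference of each member against its coding length in bases, for 24 h against 0 h in wild-type cells (left) and for knockout against wild type with anti-IL-2 (right). Circles are large-subunit and triangles small-subunit members, filled where called. With anti-IL-2 the members of up to 350 bases have a median of -0.32 and those over 600 bases one of -0.09.

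Cultures with anti-IL-2 were compared with untreated 24 h cultures, which belong to other library sets, so the antibody and the library set cannot be told apart. In wild-type cells 5 of 81 members were lower and 0 higher (5.93% of all genes called, 3.16% lower), with a median of -0.12 against 0.02. In knockout cells 24 members were lower and 0 higher (5.63% of all genes called, 2.81% lower), with a median of -0.29 against 0.01, and 80 of 81 members lay below 0. The wild-type count was 0 against untreated libraries of set B alone, where 429 of all 16287 genes were lower and 503 higher. Against those of set C alone it was 32, where 1791 of 15113 genes were lower and 1720 higher. The wild-type count was also 0 to 22 as single libraries were left out, with 22 without untreated replicate 4 and 13 without untreated replicate 5. It was 0 without anti-IL-2 replicate 1 or 3, and 1 or 2 without anti-IL-2 replicate 2 or 4 or untreated replicate 1 or 3. The knockout count was 51 against set B, where 860 of 16287 genes were lower and 715 higher. Against set C it was 32, where 1239 of 15113 genes were lower and 916 higher. Without anti-IL-2 replicates 4, 1 and 2 it was 9, 13 and 14.

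The members called in wild-type cells included Rps14, Rps15a and Rps3a1. Rps14 fell by 0.49 (adjusted p = 0.022), from 1096 to 1906 CPM without to 998 to 1063 CPM with the antibody. Rps27 had a difference of -0.55 ± 0.242 that was not called (adjusted p = 0.202).

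In knockout cells Rpl23a had the smallest adjusted p, at -0.51 ± 0.088 (adjusted p = 0.0014). It held 486.5 to 547 CPM without and 358, 391, 387 and 328 CPM with the antibody, with a clear gap between the groups. Rpl27 held 734, 863, 743, 827 and 859.9 CPM against 577, 528, 605 and 516 CPM and fell by 0.53 (adjusted p = 0.0023). Rpl30 fell by 0.59 (adjusted p = 0.0099), Rps15 by 0.54 (adjusted p = 0.0042) and Rpl8 by 0.52 (adjusted p = 0.0038). Rps2, which was higher at 24 h than at 0 h, held 2785, 2414, 2612, 2588 and 2640.0 CPM without and 2135, 1911, 2172 and 2131 CPM with the antibody. It fell by 0.32 (adjusted p = 0.023). Rpl7l1 was level, at -0.01 ± 0.093 (adjusted p = 0.984).

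The share of Rps27l in its pair was 15.3% in wild-type and 14.6% in knockout cells with anti-IL-2, and that of Rpl7l1 9.66% and 10.1%. The genotype by anti-IL-2 term called 0 members in edgeR (0% of all genes called) and 0 in DESeq2. Its member median was -0.20 against 0.00 for all genes. Before adjustment 17 members, all lower, had a p under 0.05, as did 650 of 14778 genes, 383 of them lower. The smallest adjusted p was 1, so the difference between the genotypes' responses to the antibody did not pass the test for any member. Of the 7 ribosomal proteins outside the pattern 5 fell with the antibody in knockout cells (median -0.42) and 0 in wild-type cells (median -0.23), and the genotype by anti-IL-2 term called 0 of 7. With the antibody 0 of 32 biogenesis factors and 0 of 22 initiation factors were called in knockout cells, where 5.63% of all genes were. In wild-type cells (5.93% of all genes called) 1 biogenesis factor was higher, and 2 initiation factors were higher and 1 lower.

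**Figure D5:**
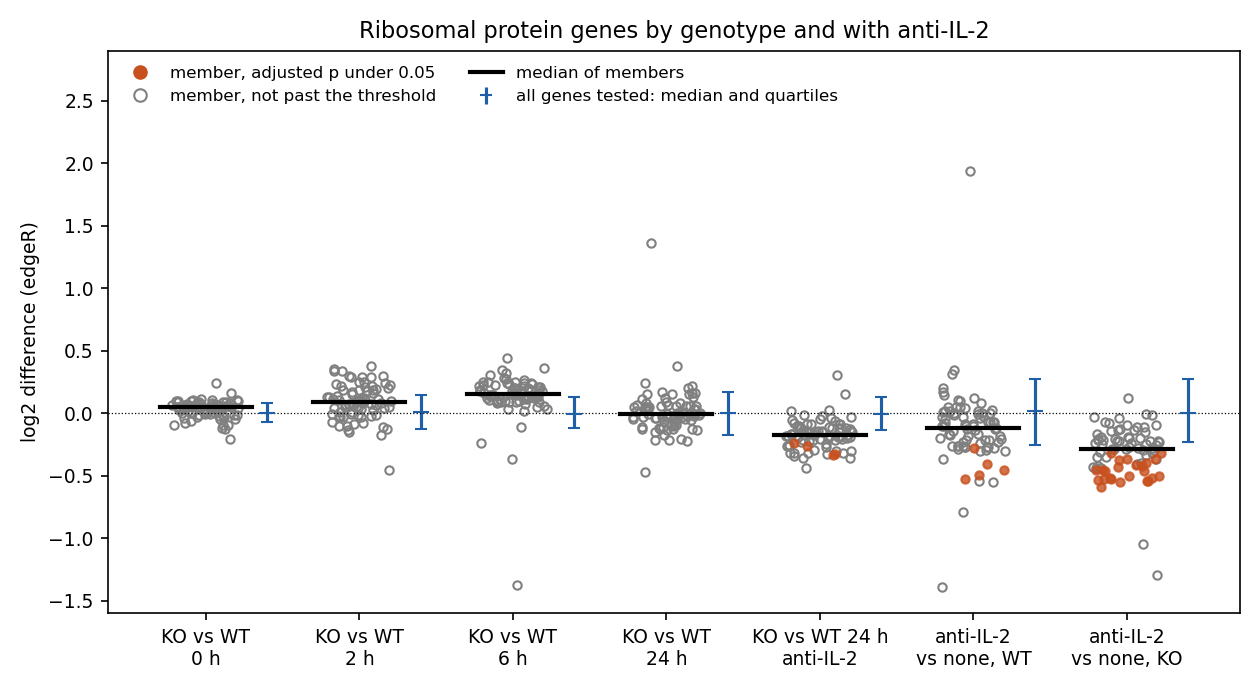
Log2 difference of each tested member (points) between knockout and wild type at each time and with anti-IL-2, and for the antibody within each genotype. Filled points are called, black lines are member medians (0.16 at 6 h, -0.17 with anti-IL-2), and blue bars the median and quartiles of all genes.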

How the data were processed

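The authors deposited raw read counts per gene in a single table for all 60 libraries of polyadenylated RNA. Per the submitters' processing notes, reads passed FastQC 0.119.9, STAR 2.7.9a, SAMtools, Picard 2.42.2 and featureCounts 2.0.1 of Subread, on GRCm39. The labels name RNA kits from Qiagen and Zymo without saying which library had which. Strand setting and the handling of reads that map to several places are not given in the sources used here. Symbols were taken from the GENCODE M21 annotation, where 52081 of 55414 genes had one, holding 99.6% of the counts, and start-site sequences from RefSeq on GRCm38.p6, another build than that of the counts, used only for display and letter searches. One ribosomal protein gene that the naming pattern would take, and the single values of some other genes, are not reported here.

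Counts were fitted with edgeR 4.0.16 in R 4.3.3 (TMM scaling, filterByExpr with a minimum count of 10, robust quasi-likelihood F test, Benjamini-Hochberg adjustment over all genes tested), with calls made where the adjusted p was under 0.05. Genotype comparisons used only the groups compared. Time comparisons used all 52 libraries without anti-IL-2, and antibody comparisons the 18 libraries at 24 h. Where libraries of several sets were compared without anti-IL-2 the fit held a term for the set, so a fitted difference is taken within sets and can differ from a ratio of group means. Errors of differences are standard errors and those of levels standard deviations. The scripts were tested on simulated counts.

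The members, the other gene lists and the settings were chosen with earlier results of these data known. In each comparison the 3 members with the largest positive and the 3 with the largest negative difference are named, among those with a mean of at least 4 CPM, besides a standing list of paralog pairs and well-studied members, and at most 3 genes of each other list with the smallest p, of which the text gives those of most weight. Alternatives were DESeq2 1.42.0 size factors and Wald test, TMM without the members, no filter, each library set alone, no set term, each genotype alone, only sets that hold both times, and each library of a group of 4 or 5 left out.

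Replicate numbers in the labels are library numbers. Libraries of set A whose numbers lie 10 apart were checked as pairs by the correlation of their deviations from group means: in the knockout all 5 pairs exceeded 0.1 both between 0 and 2 h (r = 0.11 to 0.59) and between 2 and 6 h (r = 0.22 to 0.74), and in the wild type 4 of 5 and 1 of 5 did. No pair of libraries within a group was a duplicate (smallest chi-square per degree of freedom 7.33 over 182 pairs).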

Additional observations from a re-analysis of the deposited data

Results flagged for a closer look

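In each group of 4 or 5 libraries a library far from the others was searched for, by the gap to its neighbour over the range of the group. This was done for 12 members, the share of counts in members and the ratio of large-subunit to small-subunit counts, 112 searches in all. Chance alone finds about 1 in 20 where searches are independent, and 9 were found. These searches share libraries, so the 9 cannot be set against that rate. Rpl22l1 was lowest in wild-type replicate 2 at 24 h (50.87 CPM). At 2 h in wild-type cells replicate 4 was highest for Rpl7 (2051 CPM) and Rpl3 (2099 CPM), and replicate 1 was lowest for Rps28 (194.8 CPM). Rpl7 was highest in wild-type replicate 3 at 24 h (2268 CPM). With anti-IL-2, wild-type replicate 2 was highest for Rpl13a (70.48 CPM) and replicate 1 lowest for Rps6 (797.5 CPM). Knockout replicate 2 with anti-IL-2 was lowest for Rps2 (1911 CPM) and Rpl3 (1527 CPM). What sets these libraries apart was not tested.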

How the results depend on the processing

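All medians over the members and all shares of counts moved by less than 1 SD of the libraries under each of the settings run. For genotype medians at 0, 2 and 24 h that SD (0.17, 0.139 and 0.215) was wider than the median (0.047, 0.087 and -0.009). A change of sign could thus pass, as at 24 h with 0.161 in set B and -0.102 in set C. The wild-type antibody median was -0.037 against set B and -0.206 against set C. Shares were only recomputed with ribosomal pseudogenes added, which could hardly move them, or with mitochondrially encoded genes left out. The counts of members called over time stayed within 1.5 times, but for the knockout counts named next. Without 1 library each, the 2 h against 0 h count in the knockout ran from 30 to 52, and with the replicate block of library numbers 10 apart, in set A of one genotype alone, the 6 h against 2 h count was 57. Set A alone without the pairing, added after the data were seen, gave 48, and block and set changed no other count by over 1.5 times. Leaving out knockout replicate 10 at 0 h and replicate 3 at 2 and 6 h, a setting added after the data were seen, gave 44, 26 and 55 calls for the 3 knockout steps. Between genotypes at 0 h set C alone gave 1 call, at 2 h no filter gave 3, and for genotype by time at 6 h no filter gave 1 (Rpl23a). With anti-IL-2 the genotype count was 16 in DESeq2, where 67 of 13441 genes were lower and 74 higher. It was 23 without the filter, where 104 of 26849 genes were lower and 87 higher, and 0 to 6 without single libraries. The antibody count in the wild type was 9 with DESeq2 size factors, 15 in DESeq2, 0 from its own genotype alone, 0 against set B and 32 against set C (both added later), and 0 to 22 without single libraries. That in the knockout was 37 from its own genotype alone, 51 against set B and 9 to 25 without single libraries. The number of genes called in all also changed with several of these settings, as given above. The cause of these changes was not tested.

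Each named single difference was refitted under the settings that apply to it, and these numbers count refits. Under settings other than leaving out a library 30 lost a call, 7 gained one, 11 changed sign and 997 stayed the same. With a library left out 59 lost a call, 1 gained one, 18 changed sign and 936 stayed the same. The differences that changed sign were all uncalled as reported. At 0 h these were Rpl24 in set B (-0.091), Rpl41 (0.002), Rps10 (-0.067) and Rps27l (0.055) in set A, and Rps27l in set B (0.122). At 24 h they were Rpl39 (0.162) and Rps27 (0.229) in set B. For the antibody they were Rps27 in the wild type against set B (0.124), and in the knockout Rpl35 (0.000) and Rpl7l1 (0.019) against set C and Rps10 against set B (-0.033). Without single libraries the knockout difference with anti-IL-2 ran from -0.042 to 0.020 for Rpl3, -0.010 to 0.044 for Rpl6 and -0.028 to 0.059 for Rpl7l1. The antibody difference in the knockout ran from -0.086 to 0.003 for Rpl35 and -0.066 to 0.028 for Rpl7l1, and the 6 h against 2 h difference of Rpl27 from -0.053 to 0.067. With 4 or 5 libraries a group, differences in single members as small as those between genotypes are at the limit of what these libraries resolve.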
